A study of Mus musculus with 4 samples.

Results

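The genes described here build and serve the photoreceptor cilium: 38 genes for Bardet-Biedl syndrome (BBS) proteins, intraflagellar transport (IFT) subunits, kinesin-2 motors, transition zone proteins and carriers of lipidated cargo. They were a fixed list of gene names, matched to the array's own gene names with Rp2 written as Rp2h, out of 35699 names on the array. The brightest probe of each gene over the arrays stood for it, and all 38 genes were well above background on all 4 arrays. They were measured in 3D-retinas, which are retinal tissues formed in floating culture by mouse induced pluripotent stem cells. The Nrl-GFP stem cell line used makes rods fluoresce green, since Nrl, a transcription factor gene of rods, drives the reporter. Every group came from this line and comprised 24 3D-retinas on 1 array, with treatment begun on differentiation day 23 and collection on day 25. The vehicle group received ethanol, and the 4-OHT group received 5 µM 4-hydroxytamoxifen, an active metabolite of tamoxifen. The other two groups received the same dose of 4-OHT and, in addition, either vitamin E at 400 µM, a fat-soluble antioxidant, or lutein at 200 nM, a carotenoid pigment. By the labels photoreceptor degeneration was starting at collection, and the study's question was how 4-OHT and the supplements altered expression. With 1 array per group no difference below has a replicate check or a p-value.

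The outer segment of a photoreceptor is a modified primary cilium, joined to the cell body by a narrow connecting cilium that corresponds to the transition zone of other cilia. Trains of IFT-B and IFT-A complexes, drawn outward by kinesin-2 and back by dynein-2, carry structural proteins along it, and the BBSome, a coat-like complex that rides on these trains, removes membrane proteins that do not belong there. Transition zone proteins gate what enters, and mutations in all of these classes are known to cause retinal degeneration.

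Levels are log2 signal intensities relative to the array's 75th percentile over gene spots, so a level of 0 equals that percentile. Levels of different genes are not compared, except that the marker sums further down add them. Those sums and the share of a gene in them therefore also reflect how bright each probe is. The share of gene spots well above background was 51.3% to 54.5% per array, and 0 spots were saturated. Judged by probes printed 10 times, a log2 difference between 2 arrays had a spot-to-spot SD of 0.16 to 0.17. This SD covers the array only, not differences between 3D-retinas. Of the members, 37 had 1 spot for the probe used and Ahi1 had 10.

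Most cilium genes read lower on the 4-OHT array than on the vehicle array, and 4 subunits of the BBSome stood lowest. Of 38 members 33 were below 0 (31 with quantile normalization and 34 with spike-in scaling) and 5 above, with a median log2 difference of -0.47, and 15 (39.5%) were at least 1.5-fold lower against 13.5% of all genes measured in that comparison. At 2-fold, Bbs7 and Bbs9 were lower, against 3.15% of all genes and 2.94% of coding genes. No member was at least 1.5-fold higher (15.1% of all genes and 10.2% of coding genes were) or at least 2-fold higher (7.74% and 4.76%). Of all genes measured 54.8% were below 0, and of coding genes 62.4%. The median over all genes measured was -0.06, and over the 12442 protein-coding genes well above background on every array it was -0.14, with 14.7% of the latter at least 1.5-fold lower. For 8 members the difference was inside the spot-to-spot SD: Ift20, Ift57, Ift81, Ift172, Kif3a, Kif17, Cep290 and Rp2. The lowest of the 4 values was that of the 4-OHT array for 29 members (76.3%; 53.9% of coding genes), and the vehicle array was highest for 25 (65.8%; 35.4% of coding genes). The choice of scaling sets part of these sizes: with spike-in scaling the coding median moved from -0.14 to -0.29 and the members' median to -0.62. The members' median minus the coding median was -0.33 under both, but it could not differ, since spike-in scaling shifts all genes of an array equally. This value did move with other settings, to -0.23 with quantile normalization, -0.27 with the mean of a gene's probes and -0.37 with normexp background.

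**Figure D1:**
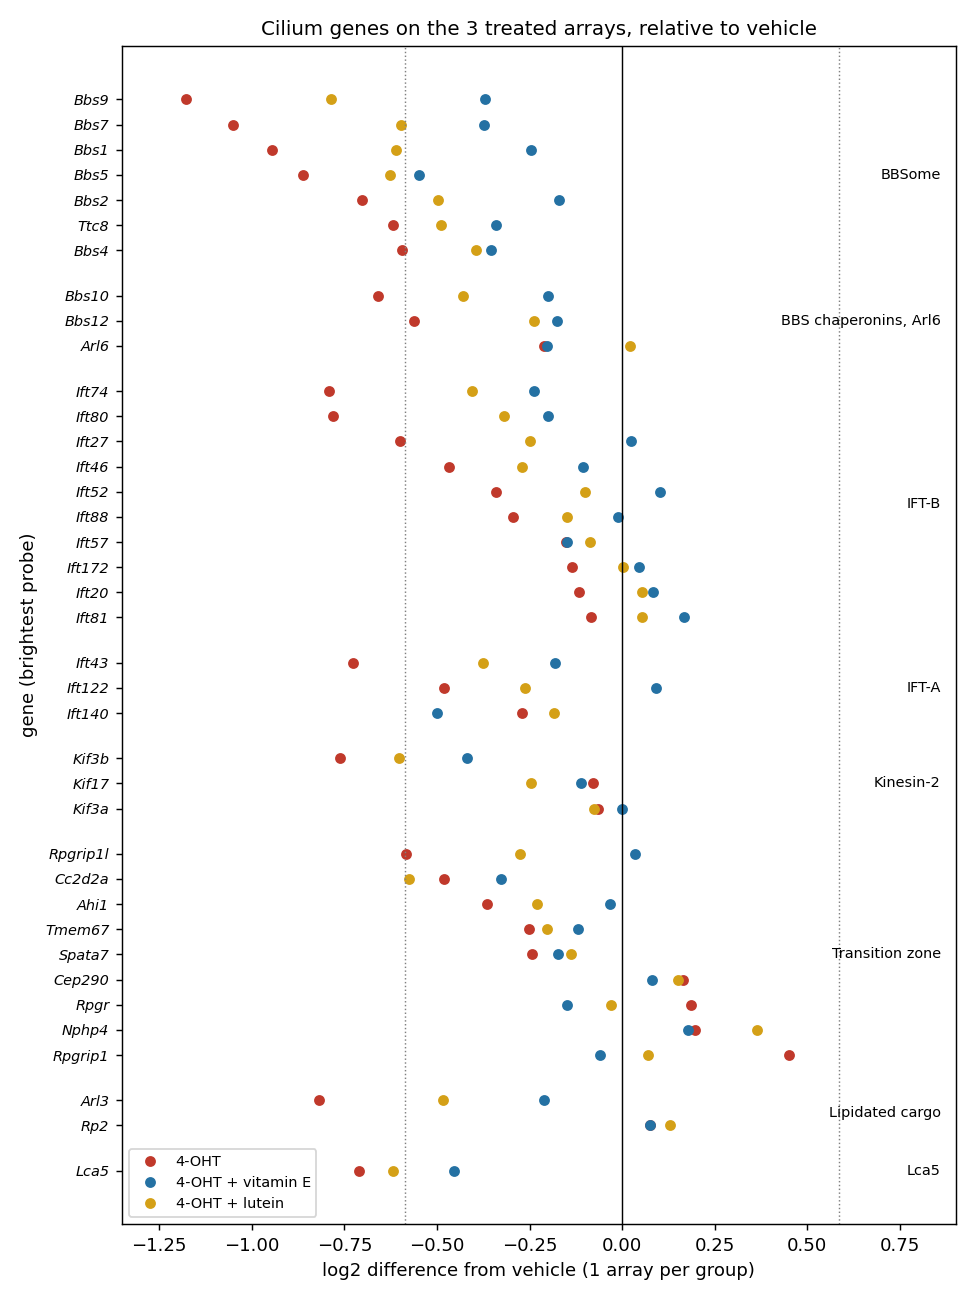
Log2 difference of each of the 38 cilium genes from the vehicle array (horizontal axis), for the 4-OHT (red), vitamin E (blue) and lutein (yellow) arrays, 1 array per group, with genes grouped by function and dotted lines at 1.5-fold. On the 4-OHT array the BBSome subunits lie from -1.18 to -0.59, with Bbs9, Bbs7, Bbs1 and Bbs5 farthest to the left of all members, whereas Rpgrip1, Nphp4, Rpgr, Cep290 and Rp2 lie to the right of 0.

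Since many members read low on the same array, their promoters were examined for the X-box, the sequence bound by RFX transcription factors, which are known regulators of ciliary genes. RefSeq promoters (GRCm38.p6, 250 bases before to 50 after each start) were found for 34 of 38 members, with 40 promoters in all; Ift80, Ift81, Ift122 and Tmem67 had no entry. They were searched on both strands for GTNNCC followed, after 1, 2 or 3 further bases of any kind, by GGNNAC. At least 1 of these patterns was present in 8 of 40 member promoters (20%), in 11 of 67 promoters of the related cilium genes described further down (16.4%), and in 1148 of 32851 promoters in the table (3.49%). The matching sites are shown with the pattern in capitals and 30 bases each, because they are what the pattern matched; whether RFX factors bind them was not tested.
Bbs7: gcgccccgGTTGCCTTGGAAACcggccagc
Bbs4: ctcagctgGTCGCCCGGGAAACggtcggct
Bbs1: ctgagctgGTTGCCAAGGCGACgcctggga
Ift57, first site: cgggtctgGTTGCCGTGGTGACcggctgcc
Ift57, other site: gccctgcgGTTGCCTGGTAACggtggggac
Nphp4: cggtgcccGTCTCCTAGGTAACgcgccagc
Ahi1: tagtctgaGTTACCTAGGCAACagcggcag
Lca5: gagtccaGTAACCAATGGGAACtgggggag

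On GRCm38.p6 these stretches lie at chr3:36613489-36613518 (Bbs7, minus strand), chr9:59353464-59353493 (Bbs4, minus), chr19:4906605-4906634 (Bbs1, minus), chr16:49699199-49699228 and chr16:49699226-49699255 (Ift57, plus), chr4:152477903-152477932 (Nphp4, plus), chr10:20952560-20952589 (Ahi1, plus) and chr9:83441137-83441166 (Lca5, minus). The pattern began 231 bases upstream of the start in Nphp4, 121 in Bbs7, 87 and 60 in Ift57 and 32 in Lca5, and it began 1, 21 and 23 bases after the start in Bbs1, Ahi1 and Bbs4. The 7 members with a pattern had a median 4-OHT minus vehicle difference of -0.59, ranging from -1.05 (Bbs7) to 0.20 (Nphp4), and the 27 without had -0.47, ranging from -1.18 (Bbs9) to 0.45 (Rpgrip1), so the ranges overlapped almost fully. Of the RFX factors, Rfx1 had log2 levels of 1.86 on vehicle, 1.89 on 4-OHT, 1.66 with vitamin E and 1.69 with lutein, and Rfx3 had -1.61, -1.51, -1.74 and -1.96. Their 4-OHT minus vehicle differences, 0.03 and 0.09, were inside the spot-to-spot SD. Rfx7 differed by -0.11. Rfx2 was dim and well above background on the 4-OHT and lutein arrays alone, where it stood at least 1.71 and 1.14 on the log2 scale above the vehicle array. Rfx5 was well above background on 1 array and Rfx4 on 0.

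The BBSome subunits were lower as a block on the 4-OHT array. All 7 differed from the vehicle array by at least 1.5-fold downward, against 13.5% of all genes and 14.7% of coding genes. Their median log2 difference was -0.86, and each had its highest value on the vehicle array and its lowest on the 4-OHT array. Over the 9 settings tried, including the reported one, the difference ranged from -0.74 to -0.44 for Bbs4 and from -0.77 to -0.51 for Ttc8. In some settings these subunits therefore fell short of 1.5-fold. Bbs9, a scaffold subunit, had levels of 4.44 on the vehicle array, 3.26 on the 4-OHT array, 4.07 with vitamin E and 3.65 with lutein, and was 2.26-fold lower with 4-OHT alone. Bbs7, which pairs with Bbs2 in the core of the complex and carries the promoter site shown above, read 4.01, 2.96, 3.64 and 3.41 in the same order and was 2.07-fold lower. Bbs1, the subunit that contacts the GTPase Arl6, read 4.32, 3.37, 4.07 and 3.71. Their probes lie in mm9 at chr9:22692601-22692660 (Bbs9, plus strand), chr3:36472204-36472263 (Bbs7, minus) and chr19:4887034-4887093 (Bbs1, minus). In these 3 genes the order of the arrays was the same, vehicle highest, then vitamin E, lutein and 4-OHT.

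Bbs5, a subunit that binds membrane phosphoinositides, had levels of 3.38 on vehicle, 2.52 on 4-OHT, 2.83 with vitamin E and 2.75 with lutein. Bbs2 read 0.93, 0.22, 0.76 and 0.43. Ttc8, also known as Bbs8, read 2.59, 1.97, 2.25 and 2.10, and Bbs4, another subunit built of tetratricopeptide repeats, read 3.56, 2.97, 3.21 and 3.17. These 4 subunits were between 1.51-fold (Bbs4) and 1.82-fold (Bbs5) lower on the 4-OHT array. In Bbs4 the vitamin E and lutein arrays differed by 0.04, well inside the spot-to-spot SD of 0.16, whereas in Bbs9 they differed by 0.41.

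Of the BBS genes outside the complex itself, the chaperonin-like Bbs10 and Bbs12, which help to assemble the BBSome, were also lower. Bbs10 read -0.41 on vehicle, -1.06 on 4-OHT, -0.60 with vitamin E and -0.83 with lutein, and Bbs12 read 2.50, 1.94, 2.32 and 2.26, just short of 1.5-fold at -0.56. Arl6, the GTPase that recruits the BBSome to membranes, had the smallest difference of the BBS genes at -0.21, with levels of 4.79, 4.58, 4.59 and 4.81. It was the 1 BBS gene of 10 whose highest value was not on the vehicle array. For all 10 BBS genes together the median was -0.68, with 8 at least 1.5-fold lower, against 13.5% of all genes and 14.7% of coding genes. Bbs10 ranged from -0.81 to -0.50 over the settings, so this count also depends on the setting.

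**Figure D2:**
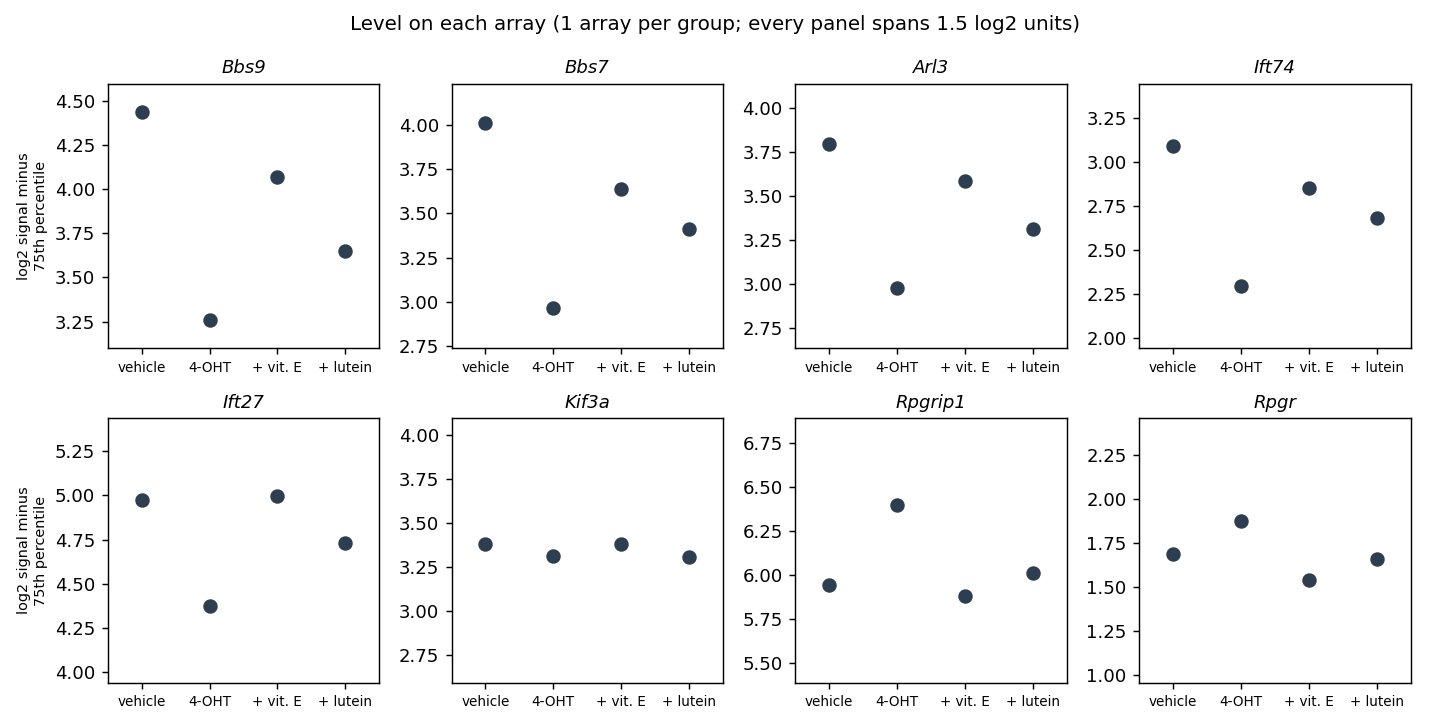
Log2 level of 8 members on each of the 4 arrays (1 point per array, no replicates), each panel spanning 1.5 log2 units. Bbs9, Bbs7, Arl3 and Ift74 are highest on vehicle and lowest on 4-OHT, Ift27 with vitamin E reaches its vehicle level, Kif3a is nearly level, and Rpgrip1 and Rpgr are highest on 4-OHT.

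The IFT genes were lower by less and differed more among themselves. All 13 were below 0 in 4-OHT against vehicle (11 with quantile normalization, where Ift20 and Ift81 turned to 0.04), with a median of -0.34, and 4 (30.8%) were at least 1.5-fold lower, which is nearer to the 13.5% of all genes than the BBS share. Of the IFT-B subunits, which form the outward trains, Ift74, which binds tubulin together with Ift81, had levels of 3.09 on vehicle, 2.30 on 4-OHT, 2.85 with vitamin E and 2.68 with lutein. Its partner Ift81 read 2.27, 2.19, 2.44 and 2.32, a 4-OHT difference of -0.08 inside the spot-to-spot SD against -0.79 for Ift74. Ift80 read 2.67, 1.88, 2.46 and 2.35. Ift27, the small GTPase through which IFT-B connects to the BBSome, read 4.98, 4.37, 5.00 and 4.73 and was 1.52-fold lower with 4-OHT.

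The other 6 IFT-B subunits ranged from -0.47 to -0.12 in 4-OHT against vehicle. Ift46 read 4.13 on vehicle, 3.66 on 4-OHT, 4.02 with vitamin E and 3.86 with lutein, and its core partner Ift52 read 1.62, 1.28, 1.72 and 1.52. Ift88, whose disruption in mice is a classic model of failed ciliogenesis, read 2.38, 2.08, 2.36 and 2.23. Ift57, Ift172 and Ift20, the last known for carrying cargo from the Golgi, differed by -0.15, -0.14 and -0.12, all inside the spot-to-spot SD.

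In IFT-A, the complex of the return journey and of membrane protein entry, Ift43 read 4.33 on vehicle, 3.60 on 4-OHT, 4.15 with vitamin E and 3.95 with lutein, a difference of -0.73 with 4-OHT. Ift122 read 3.94, 3.46, 4.03 and 3.68. The probe for Ift140 was dim, at -3.30, -3.58, -3.80 and -3.49, and it was the 1 IFT gene of 13 whose lowest value was not on the 4-OHT array. Of the kinesin-2 motors, Kif3b read 1.01, 0.25, 0.59 and 0.41 (1.70-fold lower with 4-OHT), and its heterodimer partner Kif3a read 3.38, 3.32, 3.38 and 3.31. The other probe of Kif3b differed less, at -0.19, and that of Kif3a differed more, at -0.18. Kif17, the homodimeric kinesin-2, read -0.79, -0.87, -0.91 and -1.04. The Kif3a difference of -0.07 turned to 0.10 with quantile normalization, so it has no settled direction.

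The transition zone genes did not share a direction. Of 9 members 5 were lower and 4 higher on the 4-OHT array than on the vehicle array, with a median of -0.24 and 0 past 1.5-fold either way. Of all genes 54.8% were lower and of coding genes 62.4%, so this split was near that of genes in general. Rpgrip1, the protein that anchors RPGR in the connecting cilium, was the highest of all 38 members in this comparison at 0.45, with levels of 5.94 on vehicle, 6.39 on 4-OHT, 5.88 with vitamin E and 6.01 with lutein. The 4-OHT array stood alone and the other 3 lay within 0.13 of each other. Rpgr, the retinitis pigmentosa GTPase regulator that Rpgrip1 binds, read 1.69, 1.87, 1.54 and 1.66. Nphp4 read 2.70, 2.90, 2.88 and 3.07 and so was highest with lutein, and Cep290, which bridges microtubules and membrane and is a common cause of Leber congenital amaurosis when mutated, read 1.41, 1.58, 1.49 and 1.56. Over all 9 settings tried, including the reported one, the 4-OHT minus vehicle value ranged from 0.30 to 0.55 for Rpgrip1, 0.04 to 0.28 for Rpgr, 0.05 to 0.32 for Nphp4 and 0.02 to 0.26 for Cep290. As reported, Cep290 (0.16) was inside the spot-to-spot SD of 0.17, and Rpgr (0.19) and Nphp4 (0.20) were just beyond it.

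Below 0 in the transition zone group, Rpgrip1l, the more widely expressed relative of Rpgrip1, read 0.23 on vehicle, -0.35 on 4-OHT, 0.26 with vitamin E and -0.05 with lutein, a 4-OHT difference of -0.58. Cc2d2a read 2.55, 2.07, 2.22 and 1.97 and was lowest with lutein. Spata7, a connecting cilium protein, and Tmem67, a membrane protein of the transition zone known as meckelin, differed by -0.24 and -0.25. Ahi1, known as jouberin, was the member with 10 spots: its mean ± SD over spots was 1.13 ± 0.07 on vehicle (1.02 to 1.24), 0.76 ± 0.04 on 4-OHT (0.70 to 0.82), 1.09 ± 0.04 with vitamin E (1.02 to 1.16) and 0.90 ± 0.05 with lutein (0.80 to 0.97). No 4-OHT spot of Ahi1 reached the lowest vehicle spot, which separates these arrays but not the treatments, as the spots share 1 RNA pool.

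Arl3 and Rp2 form a switch for lipidated cargo: Arl3 with bound GTP releases such proteins inside the cilium and Rp2 turns it off. Arl3 read 3.80 on vehicle, 2.98 on 4-OHT, 3.59 with vitamin E and 3.31 with lutein, 1.76-fold lower with 4-OHT alone. Rp2 read -1.60, -1.52, -1.52 and -1.47, a 4-OHT difference of 0.07 that ranged from -0.07 to 0.08 over the settings. Lca5, or lebercilin, which binds IFT proteins, read 1.73, 1.02, 1.28 and 1.11 and was 1.63-fold lower, although its probes did not agree, as described below.

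**Figure D3:**
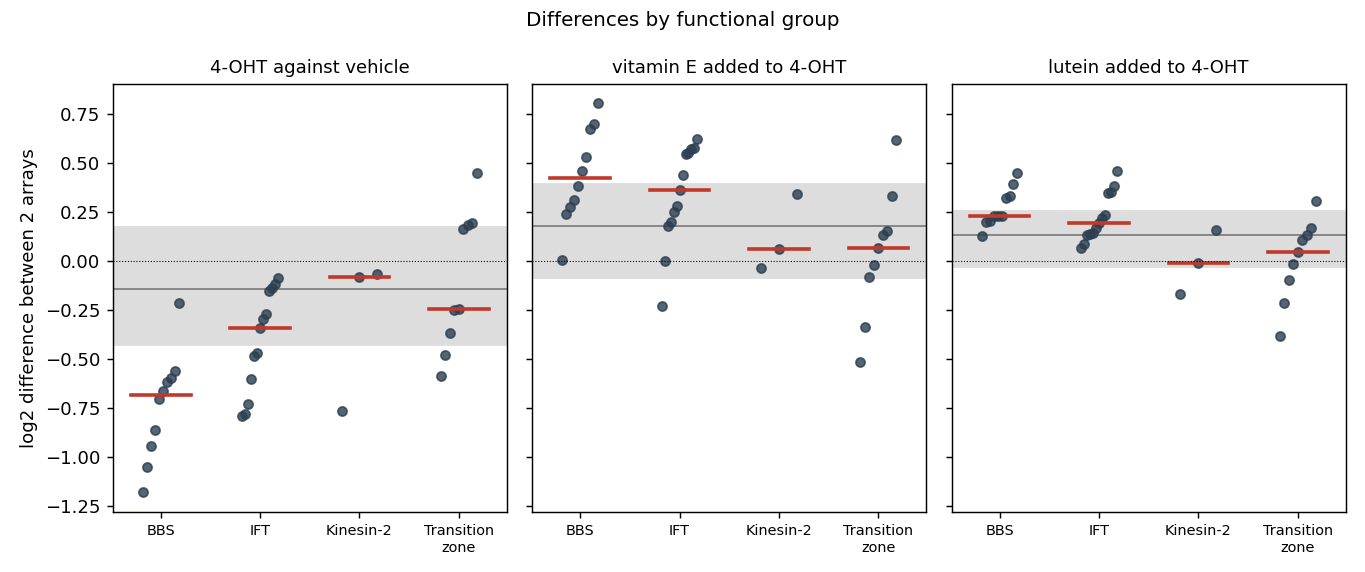
Log2 difference between 2 arrays for the BBS (10 genes), IFT (13), kinesin-2 (3) and transition zone (9) members in 3 comparisons, with 1 point per gene, red bars at the group medians and grey bands at the middle 50% of protein-coding genes around their median. In 4-OHT against vehicle the BBS median of -0.68 and the IFT median of -0.34 stand on either side of the lower edge of the band.

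With both supplements most of the cilium genes read above the 4-OHT array, but so did most genes. With vitamin E 6 of 38 members were below it, against 42.9% of all genes and 32.0% of coding genes. With lutein 6 of 38 were below it, against 38.2% and 28.4%. These comparisons use the same 4-OHT array as the one above, so a gene low on that array is raised in all of them, and they are not independent of it. With vitamin E, 32 of 38 members were above the 4-OHT array with a median of 0.28 (coding genes 0.18). At least 1.5-fold lower were 0 members, against 15.6% of all genes and 7.73% of coding genes. At least 1.5-fold higher were 6 (15.8%), against 8.55% of all genes and 9.3% of coding genes (2 members with quantile normalization and 14 with spike-in scaling). The 6 were Bbs9 (0.81), Bbs1 (0.70), Bbs7 (0.68), Ift27 (0.62), Rpgrip1l (0.62) and Arl3 (0.61). With lutein, 32 of 38 were above the 4-OHT array with a median of 0.17 (coding genes 0.13). In that comparison 0 were at least 1.5-fold higher or lower, against 3.84% and 9.13% of all genes and 2.06% and 3.41% of coding genes. The largest lutein values were 0.46 for Ift80 and 0.45 for Bbs7, and differences were inside the spot-to-spot SD for 14 members with lutein and 10 with vitamin E. Rpgrip1 was again apart from the others, at -0.51 with vitamin E and -0.38 with lutein.

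By group, the median with vitamin E added to 4-OHT was 0.42 for BBS genes, 0.36 for IFT genes and 0.07 for transition zone genes, and with lutein it was 0.23, 0.20 and 0.05. For BBS and IFT genes these are 0.24 and 0.18 above the coding median with vitamin E and 0.10 and 0.06 above it with lutein. Against the vehicle array, the BBS median was -0.68 with 4-OHT alone, -0.29 with vitamin E and -0.49 with lutein, the IFT median was -0.34, -0.01 and -0.18, and the transition zone median was -0.24, -0.06 and -0.14. The IFT genes with vitamin E thus centred on their vehicle values, and 6 of 13 had their highest value on the vitamin E array, Ift27, Ift52 and Ift122 among them. Of coding genes 28.6% had their highest value there. The BBS genes stayed below their vehicle values: 10 of 10 were below with vitamin E, and 9 of 10 with lutein, Arl6 being 0.02 above. Of all genes 52.4% were below vehicle with vitamin E and 51.5% with lutein, and of coding genes 48.6% and 53.1%.

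Across all members, vitamin E with 4-OHT against vehicle had a median of -0.16 (coding genes 0.01). In it 0 members were at least 1.5-fold lower or higher, against 6.62% and 4.4% of all genes and 2.69% and 3.89% of coding genes. Lutein with 4-OHT against vehicle had a median of -0.25 (coding genes -0.02). In the lutein comparison 6 members were at least 1.5-fold lower, Bbs9, Bbs5, Bbs1, Bbs7, Lca5 and Kif3b, against 5.81% of all genes and 4.73% of coding genes. At least 1.5-fold higher were 0, against 9.19% and 7.4%. Directly compared, the vitamin E array was above the lutein array for 29 of 38 members with a median of 0.14 (coding genes 0.05). It was below the lutein array for 9 members, against 46.4% of all genes and 40.4% of coding genes. In that comparison 0 members were 1.5-fold apart, against 2.21% of all genes higher and 8.82% lower with vitamin E, and 18 differences lay inside the spot-to-spot SD. The largest differences were 0.41 for Bbs9 and 0.36 for Bbs1.

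Where a member had 2 or more probes detected on every array, as 15 members did, the probes could be set against each other. In 4-OHT against vehicle all probes of a gene had the same sign in 13 of 15, with a median spread of 0.11 between the highest and lowest probe. The second probes of Bbs5 and Bbs7 read -1.11 each beside -0.86 and -1.05 for the brightest, and that of Bbs1 read -0.67 beside -0.94. For Ift74 the other probe read -0.22 beside -0.79 and for Kif3b -0.19 beside -0.76, so the 1.5-fold values of these genes rest on 1 of 2 probes. Lca5 had the widest spread, 0.74: its probes read -0.71, -0.30 and 0.03, and its 1.5-fold value rests on 1 of 3.

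**Figure D4:**
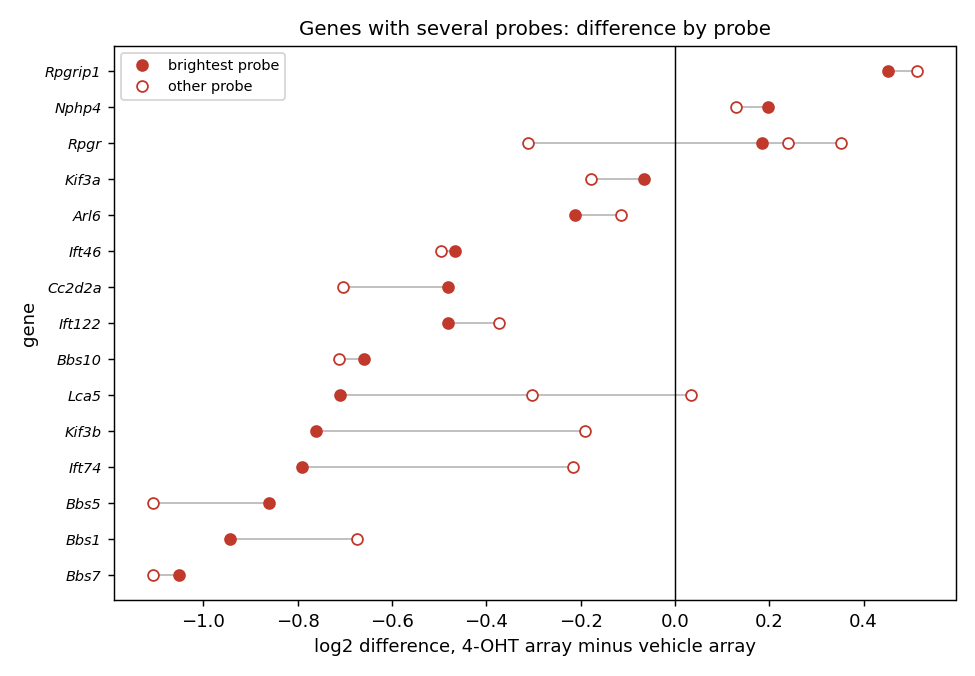
Log2 difference between the 4-OHT and vehicle arrays for every detected probe of the 15 members with several probes, with filled points for the brightest probe and open points for the others. Probes of Rpgrip1, Nphp4, Bbs5 and Bbs7 lie on the same side of 0, while those of Rpgr and Lca5 fall on both sides.

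Rpgrip1 was the highest member on the 4-OHT array relative to vehicle, and the probes of its partner Rpgr were split in sign, so the start of each of their 60-base probes is shown, and capitals mark the 25 bases that both printed Rpgrip1 stretches contain.
Rpgrip1, other probe: gtatcAGAAGAGACAATGGTAATTTGTGTT
Rpgrip1, brightest probe: AGAAGAGACAATGGTAATTTGTGTTtgagc
Rpgr, brightest probe: ctctttgaagtgttctggccttacaactgc
Rpgr, probe with the highest difference: aacagaaggctcagaaactattgatattac
Rpgr, nearest to the brightest: aaacagggaccattgtaatgaacttatttt
Rpgr, probe with a difference below 0: ttgaaggagacagaaaggaggcaaaagcag

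The Rpgrip1 probes lie on the plus strand of mm9 at chr14:52780541-52780600 and chr14:52780546-52780605 and overlap by 55 bases. Their 4-OHT minus vehicle values of 0.51 and 0.45 are therefore nearly the same measurement made from neighbouring probes, not a separate check of the transcript. The Rpgr probes lie on the minus strand of mm9 in the order given, at chrX:9735535-9735594 (0.19), chrX:9743203-9743262 (0.35), chrX:9735349-9735408 (0.24) and chrX:9753131-9753190 (-0.31). The probe below 0 lies farthest toward the start of the gene on that strand. With vitamin E added to 4-OHT all 4 Rpgr probes were lower, including the last at -0.49.

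Cilium genes outside the list, taken from related lists drawn up by function, were compared between 4-OHT and vehicle, beside the 62.4% of coding genes and 54.8% of all genes below 0. At least 1.5-fold lower were 14.7% of coding genes and 13.5% of all genes. Of 14 other IFT and BBS subunits 12 were lower and 2 higher with a median of -0.57, and 7 were at least 1.5-fold lower. The lowest was Ttc30b at -1.16, an IFT-B subunit with levels of 1.70 on vehicle, 0.54 on 4-OHT, 1.55 with vitamin E and 1.06 with lutein, followed by the IFT-A subunit Ttc21b at -0.89. The highest were Wdr19 (0.24), whose probe was dim at -4.06 on vehicle and -3.82 on 4-OHT, and Tulp3 (0.13). Of 14 further transition zone genes measured out of 15, 12 were lower with a median of -0.42 and 5 were at least 1.5-fold lower, beside 5 of 9 lower and a median of -0.24 for the listed transition zone members. Tmem17 (levels of 1.69 on vehicle, 0.69 on 4-OHT, 1.51 with vitamin E and 1.29 with lutein) and Tmem138 (a difference of -0.83) were lowest, and Invs (0.54) and Iqcb1 (0.25) highest.

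Of 7 dynein-2 genes and kinesin partners 4 were lower with a median of -0.19, from Dync2li1 (-0.82) and Kifap3 (-0.76), the accessory subunit of the Kif3a and Kif3b motor, to Kif7 (0.16) and Wdr34 (0.53). Of 7 partners in lipidated cargo transport 6 were lower with a median of -0.40, from Pde6d (-0.74), a carrier of prenylated proteins that Arl3 unloads, and Arl2bp (-0.63) to Inpp5e (-0.31) and Unc119b (0.11). Of 10 basal body genes 7 were lower with a median of -0.30, from Cetn2 (-0.81) and Cby1 (-0.67) to Alms1 (0.18) and Cep164 (0.40). Among 14 genes of the axoneme and the base of the outer segment 10 were lower with a median of -0.32, and the range was wider. Rp1, the photoreceptor-specific microtubule protein of the axoneme, was lowest at -1.50 and Fam161a next at -1.27. Pcdh15 (0.97) and Adgrv1 (0.50), both known from Usher syndrome, were the highest of those detected on every array.

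**Figure D5:**
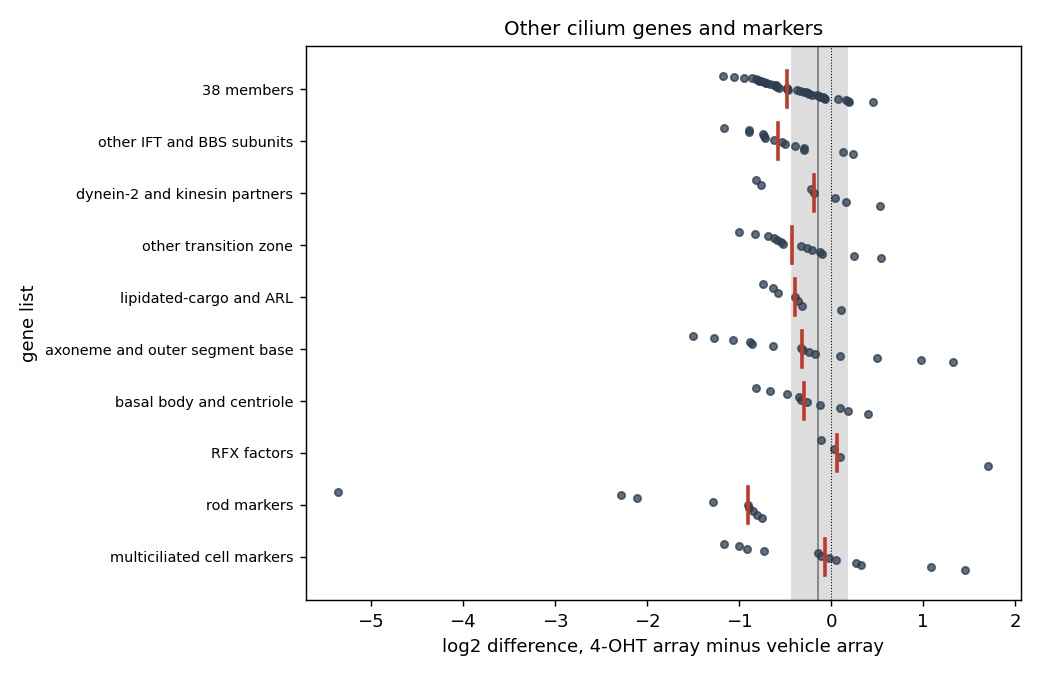
Log2 difference between the 4-OHT and vehicle arrays for the 38 members, 6 related cilium lists, RFX factors and markers of rods and of multiciliated cells, with 1 point per gene measured, red bars at medians and a grey band at the middle 50% of protein-coding genes. The rod markers lie farthest to the left with a median of -0.90, and the multiciliated markers spread on both sides of 0; the Rfx2 point at 1.71 is a lower bound.

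Rod markers were lower together with the members, and markers of other cells were not uniformly so. All 9 markers of the rod list, among them Gnat1, Nrl and Nr2e3, were well above background on every array and at least 1.5-fold lower on the 4-OHT array. Their median was -0.90, with differences from -5.35 (Gnat1, rod transducin) to -0.75 (Nrl). Their summed level, relative to the array's 75th percentile, was 1118 on vehicle, 532 on 4-OHT, 897 with vitamin E and 679 with lutein, with Nrl making up 45.4% to 56.8% of it. The arrays came in the same order in every BBSome subunit and in some members of other groups, such as Arl3, Ift74 and Lca5, but not in all members. In RNA from whole 3D-retinas fewer rods and less RNA per rod cannot be told apart, and the part of rods in the cilium result was not tested. Of the cone markers, 4 of the 6 measured were higher on the 4-OHT array and 2 lower (Gnat2 at -1.30 and Pde6h at -0.52), with a median of 0.59. All 7 summed to 120 on vehicle and 181 to 201 on the other arrays, of which Gngt2 made up 96.9% to 98.6%, with Opn1mw not well above background on any array and Opn1sw not on the vehicle array. Bipolar cell markers were lower on 4-OHT in 4 of 5 (median -0.43, Grm6 at -0.81 and Prkca at -0.61, against 0.39 for Otx2), and all 5 were higher with vitamin E added (median 0.77). Their sum was 254 to 358, of which Otx2 made up 68.9% to 78.8%, so it mainly follows that gene. Of 6 amacrine and horizontal markers 5 were lower (median -0.19), as were 4 of 5 ganglion cell markers (median -0.17). Müller glia markers summed to 94.3 to 109, with 3 lower and 3 higher on 4-OHT, from Dkk3 (-0.32) to Vim (0.89). Progenitor markers summed to 5.01 to 6.36, of which Mki67 made up 44.2% to 51.4%. On 4-OHT 2 of these were lower and 4 higher, from Hes1 (-0.71) to Sox2 (0.73). Pigment epithelium markers summed to 2.89 on vehicle and 8.54 to 11.6 on the others, mostly through Dct (2.43), beside Mitf at -0.12, Pmel at -0.30 and Tyr at 0.36, with the defining genes Rpe65 and Best1 not well above background on any array.

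Multiciliated cells, which share IFT with photoreceptors, were checked through motile cilium genes. Of the 12 measured in 4-OHT against vehicle 7 were lower and 5 higher, with a median of -0.06. For the axonemal dyneins Dnah5 and Dnah9 no array gave a signal well above background, and for Rsph4a the 4-OHT array alone did. Foxj1, the master regulator of motile cilia, read -0.38 on vehicle, -1.37 on 4-OHT, -0.58 with vitamin E and -0.87 with lutein. Mcidas, an upstream regulator of multiciliated fate, read 3.65, 5.10, 3.72 and 4.13, highest on 4-OHT. The summed level was 20.0 on vehicle, 43.6 on 4-OHT, 24.6 with vitamin E and 26.1 with lutein. Mcidas made up 53.5% to 78.8% of it, so its order follows that gene, and the part of such cells in the result was not tested.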

How the data were processed

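Total RNA of each pool (24 3D-retinas) was labelled with Cy3 and hybridised to 1 one-colour array, per the labels' protocols. Per the submitters' processing notes, the deposited intensity came from Agilent Feature Extraction, version 10.7.3.1. It was background-subtracted, with spatial and multiplicative detrending and surrogates for values near background, per the file headers, which give mm9 as the design's build. The lutein file holds intensities at 3 significant digits. Some of its gene names had been turned into dates, so names came from the vehicle array. All arrays lay on 1 slide with 1 scan, and position and group cannot be told apart. The authors' deposited value table held linear intensity divided by 1 number per array (vehicle 494.204, 4-OHT 434.061, vitamin E 468.862, lutein 479.24), with column medians of 0.0794, 0.0949, 0.0736 and 0.0847. This scale was found by comparison with the scanner values, and the table was an alternative.

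Control spots and 137 to 164 outlier spots per array were left out. Intensities were log2-transformed, the array's 75th percentile was subtracted, spots of a probe were averaged, and the brightest of a gene's 57 member probes in all was kept. A gene entered a comparison if well above background on at least 1 of its arrays, with dim values raised to the array's floor. One rod marker of the list is not reported here. The members and lists were chosen with earlier results of these data known. Genes named with 4 values were those at least 1.5-fold apart in 4-OHT against vehicle and the extremes of each group, and others were added after their values were seen. From related lists the 2 highest and 2 lowest detected on both arrays were named. The brightest probe had mm9 coordinates for 36 members, not for Ift172 and Arl3. Exon and UTR annotation was not used here. Python 3.11.15, NumPy 2.4.6, pandas 2.3.3, R 4.3.3 and limma 3.58.1 (normexp, offset 50) were used. On simulated arrays for 4-OHT against vehicle (20544 genes) 27 of 50 genes given 1.5-fold and 50 of 50 given 2-fold passed 1.5-fold, as did 0 of 20344 unchanged genes. The simulated arrays were copies of the vehicle array with random spot noise and no variation between pools or arrays. They check the calculation and give no rate of false calls for the real arrays. The 8 alternatives were scaling on the median of detected probes, quantile normalization, spike-in scaling (7 of 10 probes), normexp background, averaging the probes of a gene, the authors' table, requiring detection on both arrays, and using no filter.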

Additional observations from a re-analysis of the deposited data

How the results depend on the processing

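Of 144 summary values recomputed under the 8 alternatives 138 stayed within the tolerance and 6 moved beyond it, all involving vitamin E. Requiring detection on both arrays and using no filter could not change a member's value, since every member was well above background on all 4 arrays. Values from these 2 alternatives are counted among those that stayed, here and for single members below. The tolerance was the spot-to-spot SD for a median and 1.5 times for a count, so values within it also shifted: members at least 1.5-fold lower with lutein and 4-OHT against vehicle numbered 6 as reported and 4 with quantile normalization, and the median with lutein added to 4-OHT ranged from 0.09 to 0.28. The count of members at least 1.5-fold higher with vitamin E added to 4-OHT was 6 as reported, 2 with quantile normalization and 14 with spike-in scaling. The count at least 1.5-fold lower in that comparison was 0 as reported and 1 with quantile normalization and with normexp background. The members' median for vitamin E added to 4-OHT was 0.28 as reported and 0.50 with spike-in scaling, under which the coding median moved from 0.18 to 0.40 and coding genes at least 1.5-fold higher and lower went from 1157 and 962 to 3458 and 662. For vitamin E with 4-OHT against vehicle, 0 members were at least 1.5-fold lower as reported and 1 with the mean of a gene's probes. The cause was not tested. In 4-OHT against vehicle the members' median ranged from -0.62 to -0.33, the BBS median from -0.83 to -0.65, the IFT median from -0.49 to -0.29 and the transition zone median from -0.39 to -0.22. The members at least 1.5-fold lower in it numbered 15 as reported, 12 with quantile normalization and 20 with spike-in scaling, while coding genes higher and lower went from 1267 and 1833 to 935 and 3019 with spike-in scaling. The kinesin-2 median with lutein added to 4-OHT, -0.01, changed sign with the setting, from -0.12 to 0.10. Of 1824 values of single members 1755 stayed within the spot-to-spot SD of the reported value and 69 moved beyond it. No paired analysis was possible because there was a single array per group. Signal over background limits Ift140 in particular, whose probe was dim on all 4 arrays, and leaving out a replicate could not be done.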
